A study of Mus musculus with 4 samples.

Results

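Granzyme K is a serine protease of T cell granules, and the cells described here are CD4 T cells that carried its transcript (Gzmk) without transcripts of Foxp3 or of NK-type receptors. They were found in spleens of lymphocyte-deficient hosts after transfer of donor CD4 T cells. A cell was called a Gzmk cell when its barcode showed no fewer than 500 genes and no more than 10% mitochondrial UMIs (unique molecular identifiers, 1 per captured transcript), with exactly 1 TRB contig and at most 2 TRA contigs. It also had to hold at least 1 Gzmk UMI, 0 Foxp3 UMIs and 0 UMIs summed over Cx3cr1, Klrd1 and Klra3. This rule chose 1777 cells in mouse 1 and 1298 cells in mouse 2, or 3075 in all, out of 12325 cells that passed the same quality and receptor filters (5993 in mouse 1 and 6332 in mouse 2) and 19729 barcodes in the expression files. The remaining kept cells with 0 Foxp3 UMIs, 3297 in mouse 1 and 3888 in mouse 2, are called the remaining cells. They comprise 722 and 1191 NK receptor cells, with at least 1 UMI of Cx3cr1, Klrd1 or Klra3 and with or without Gzmk, and 2575 and 2697 cells with neither Gzmk nor NK receptor UMIs.

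The study asked how mouse CD4 T cells that use the receptor β chain Vβ3 act in a model of type 1 diabetes. Donor CD4 T cells came from spleens of 2 B6.H2g7 mice (strain B6.NOD-(D17Mit21-D17Mit10)/LtJ), aged 6 to 8 weeks, and 5000000 magnetically purified cells were given to each of 2 NOD.Rag1null hosts. NOD.Rag1null mice make no T or B cells of their own. On day 14, live CD4+ TCRβ+ cells were sorted from each host's spleen, which was processed on its own, and each host gave 1 gene expression library and 1 T cell receptor library by the 10x 5′ method. The labels do not say whether donor cells were pooled or which donor supplied which host. Both hosts received the same transfer and no group without transfer is used here, so all comparisons are between cell classes within the hosts. Replication is over these 2 hosts only. The p-values of the main tests rest on how the class difference varied between the hosts, and largely on a spread pooled across genes.

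CD4 T cells that kill or secrete inflammatory mediators share parts of the effector programme of CD8 T cells and NK cells. The T-box factors T-bet (Tbx21) and Eomesodermin (Eomes) drive interferon γ and granule genes, perforin opens the target cell membrane, and granzymes B and A enter to start cell death. Granzyme K is made by an effector memory type of T cell together with the chemokines CCL5, CCL4 and CCL3. CD4 cells with Eomes, IL-10 and several inhibitory receptors are often described as type 1 regulatory cells, and TCF-1 (Tcf7), ID3, CCR7 and the IL-7 receptor mark less differentiated cells.

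The gene lists named below are described by counts and medians, because they were chosen with earlier results of these data known. Depth was alike in both classes, with median UMIs of 5637 and 6229 in Gzmk cells of mouse 1 and mouse 2, against 5446 and 6149.5 in the remaining cells. Median detected genes were 2272 and 2468 in Gzmk cells, against 2269 and 2486 in the remaining cells. Mitochondrial UMIs had medians of 1.48% and 1.503% in Gzmk cells, against 1.90% and 1.94% in the remaining cells. The 2 expression files shared 166 barcodes, 58 of them kept in both mice, none with the same clonotype in both and 2 of them Gzmk cells in both. Summed UMIs were 11970795 and 9156968 over the Gzmk cells, and 19608957 and 26490124 over the remaining cells.

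The receptors of the leading Gzmk cell clones are shown first because single clones make up much of this population. A clonotype is the same TRBV gene, TRBJ gene and TRB CDR3 nucleotide sequence in 1 mouse. TRB genes lie on mouse chromosome 6 and TRA genes on chromosome 14. The 3 clonotypes with the most Gzmk cells in each mouse had these CDR3 nucleotide sequences, read 5′ to 3′ from the assembled contigs, where capitals mark the base that differs between the 2 TRBV31 clonotypes.
Mouse 1, TRBV31 with TRBJ1-4, first clonotype: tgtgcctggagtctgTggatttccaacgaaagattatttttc
Mouse 1, TRBV31 with TRBJ1-4, second clonotype: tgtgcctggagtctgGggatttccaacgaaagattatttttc
Mouse 1, TRBV14 with TRBJ2-4: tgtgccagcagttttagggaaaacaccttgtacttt
Mouse 2, TRBV13-1 with TRBJ2-7: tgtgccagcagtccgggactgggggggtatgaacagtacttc
Mouse 2, TRBV29 with TRBJ2-3: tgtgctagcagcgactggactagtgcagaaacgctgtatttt
Mouse 2, TRBV3 with TRBJ2-7: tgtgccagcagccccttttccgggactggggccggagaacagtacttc

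The 2 TRBV31 clonotypes of mouse 1 differed by 1 substitution, T16G, counted from the first base of the CDR3. Their α chains set them apart as clones: both used TRAV21-DV12, with TRAJ56 in all 214 cells of the first clonotype with an α contig and with TRAJ48 in all 211 such cells of the second, and their α CDR3 sequences differed.
First clonotype, TRA: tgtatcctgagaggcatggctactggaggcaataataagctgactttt
Second clonotype, TRA: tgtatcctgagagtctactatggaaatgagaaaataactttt
The leading clonotypes of mouse 2 paired with TRAV12N-2 and TRAJ33 (TRBV13-1), TRAV6N-7 and TRAJ27 (TRBV29) and TRAV7N-6 and TRAJ4 (TRBV3).

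Gzmk itself and the chemokines Ccl5 and Ccl4 describe the population and were not tested, since Gzmk chose the cells and the chemokines were named with them. Gzmk cells held a median of 6 Gzmk UMIs in each mouse, with a middle range of 2 to 12 and maxima of 97 and 92. Gzmk (chromosome 13, 113171608 to 113225908 on the minus strand, GRCm38) reached 1358 and 1202 CPM (counts per 1000000 UMIs of the summed cells) in Gzmk cells of mouse 1 and mouse 2, against 255 and 205 CPM in the remaining cells. By the rule, the Gzmk UMIs of the remaining cells all lie in NK receptor cells, where Gzmk reached 969.6 and 643 CPM and 68.8% and 65.0% of cells had at least 1 Gzmk UMI. Ccl5 (chromosome 11, 83525778 to 83530518) was at 24738 and 26783 CPM in Gzmk cells, against 22935 and 25386 CPM in NK receptor cells and 1043 and 798 CPM in cells with neither. Ccl4 (chromosome 11, 83662584 to 83664683) was at 1746 and 1905 CPM in Gzmk cells, against 2250.3 and 2397 CPM in NK receptor cells and 216 and 129.9 CPM in cells with neither. Gzmk cells thus shared high chemokine levels with NK receptor cells, with Ccl5 slightly higher and Ccl4 lower in Gzmk cells of both mice.

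The rule has a threshold of 1 Gzmk UMI, and 334 (18.8%) and 233 (17.95%) of the Gzmk cells had exactly 1. In these Ccl5 was at 6152 and 9349 CPM and Eomes at 45.5 and 60.7 CPM. Gzmk cells with 2 to 4 UMIs had 21518 and 21193 CPM of Ccl5, and those with 5 to 9 UMIs had 32985 and 34669.7 CPM. Cells just outside the rule by a single NK receptor UMI, with Gzmk UMIs, numbered 273 and 305 and had 26446 and 31779.8 CPM of Ccl5 and 2555 and 3257 CPM of Ccl4. Cells just outside by a single Foxp3 UMI numbered 33 and 21 and had 20828 and 24496 CPM of Ccl5. The cells at the lower edge by Gzmk were therefore less rich in Ccl5 than cells excluded by 1 NK receptor or Foxp3 UMI. Those excluded cells could hold any number of Gzmk UMIs, so the sets were not matched for Gzmk.

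Gzmk cells made up 35.0% (exact Clopper-Pearson 95% interval 33.7 to 36.4%) of kept cells without Foxp3 UMIs in mouse 1 and 25.03% (23.9 to 26.2%) in mouse 2. These intervals, like all intervals on shares here, cover counting error only. With every cell thinned to 3000 UMIs the shares were 35.1% and 25.1%, after 591 and 335 shallower kept cells were left out. Here and in all results after thinning, the rule was applied again to the thinned counts. Cells that lost their Gzmk UMIs left the class, and cells that lost their NK receptor or Foxp3 UMIs could enter it. NK receptor cells numbered 433 and 789 after thinning, against 722 and 1191 before. With at least 2 Gzmk UMIs required they were 28.4% and 20.5%. With 1 cell drawn per clonotype they were 24.3% and 18.3%, lower in each mouse than over all cells. Free RNA in droplets can place a UMI in a cell that does not express the gene. Among naive-like cells (at least 2 Igfbp4 UMIs, a cut chosen after the data were seen), 17 of 145 (11.7%, interval 6.98 to 18.1%) in mouse 1 and 7 of 225 (3.11%, 1.26 to 6.30%) in mouse 2 had a Gzmk UMI, at median depths of 7674 and 9670 UMIs, and 4 and 1 had 2 or more. The share over all cells, with any number of Gzmk UMIs, was above this level in both mice. Cells with exactly 1 Gzmk UMI, NK receptor cells included, were 7.75% and 6.59% of kept cells without Foxp3 UMIs. In mouse 1 this was not above the naive-like share. The part of free RNA in cells with 1 Gzmk UMI was not tested.

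The lower share in mouse 2 went with a larger NK receptor class. Of kept cells without Foxp3 UMIs, 44.8% in mouse 1 and 39.95% in mouse 2 had a Gzmk UMI. Of these Gzmk-positive cells, 21.9% in mouse 1 and 37.4% in mouse 2 also had an NK receptor UMI and so fell outside the rule. Among kept cells with Foxp3 UMIs, 12.0% and 9.69% had a Gzmk UMI.

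The first comparison asked which other genes set the Gzmk cells apart from the remaining cells of the same hosts. Gzmk cells carried more transcripts of granule and killing genes, of Eomes, Il10 and the chemokine gene Ccl3, and of all tested cell cycle genes on the proliferation list. They carried fewer transcripts of naive, memory and T follicular helper genes, and their Tbx21 level did not pass the test. Counts were summed per mouse and class and tested with edgeR's quasi-likelihood test with the mouse as a block. Its p-values were adjusted by the Benjamini-Hochberg method across the 12614 genes tested, with a threshold of 0.05. Of these genes 4726 (37.5%) were called, 2508 (19.9%) higher and 2218 (17.6%) lower in Gzmk cells, and without the block 1779 were called, 862 higher and 917 lower. Genes that travel with Gzmk from cell to cell had to differ here, because UMIs of the same cells chose the class. Of the 4726 called genes 4689 differed in the same direction in both hosts. Adjusted p-values rest largely on a spread pooled across genes, and all adjusted p-values below come from this test unless another tool is named.

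**Figure D1:**
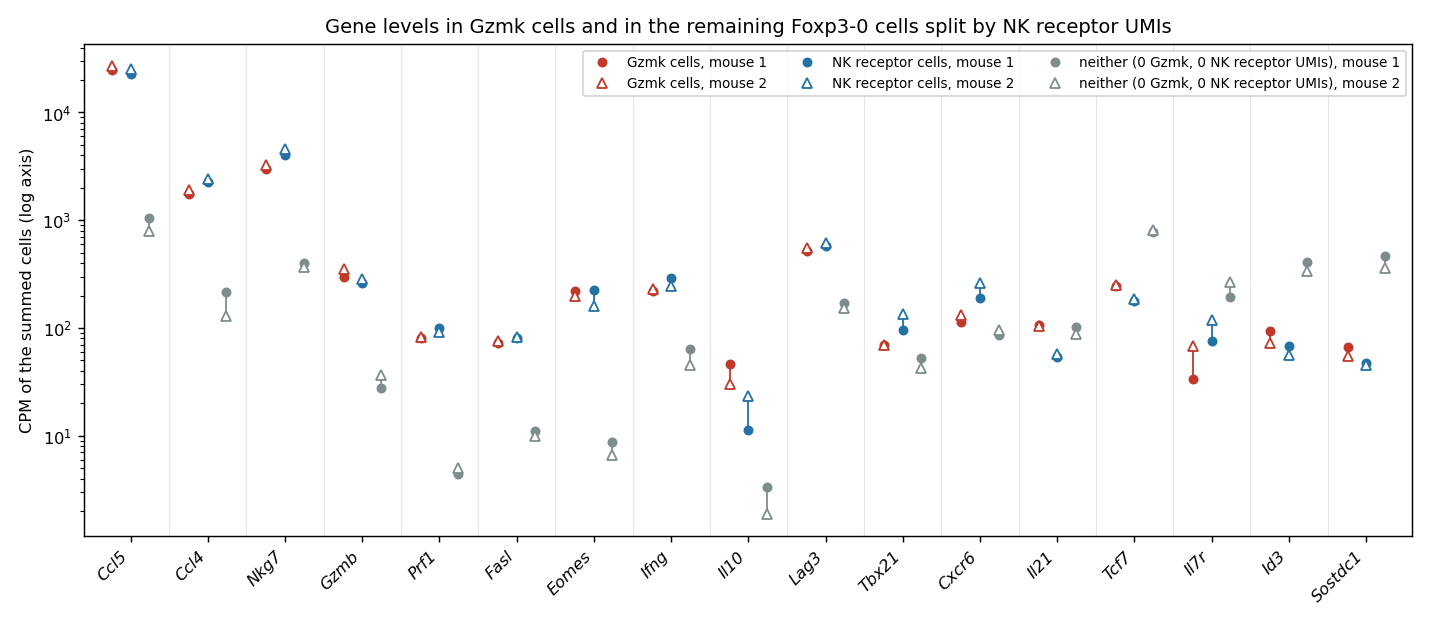
Level of each gene in CPM (log axis) in Gzmk cells (red), NK receptor cells (blue) and cells with neither (grey), with a filled circle for mouse 1 and an open triangle for mouse 2 and a line joining the mice. Ccl5, Eomes and Prf1 lie far above the cells with neither in both mice, and Tcf7 (244 and 252 CPM in Gzmk cells) lies below them.

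Of the 16 genes on the cytotoxic granule list, 13 rose in Gzmk cells and 2 fell, with a median log2 fold change of 0.59 against -0.00091 over all tested genes. Gzmb, granzyme B, was at 299 CPM in Gzmk cells of mouse 1 and 353 CPM in those of mouse 2, against 88.4 and 116 CPM in the remaining cells (log2 fold change 1.74, SE 0.05, adjusted p = 3.3e-19). Prf1, perforin, was at 80.9 and 82.7 CPM in Gzmk cells, against 29.3 and 32.9 CPM in the remaining cells, a log2 fold change of 1.46. In both genes each Gzmk cell value lay above each remaining cell value. Nkg7, a granule membrane protein needed for degranulation, was at 2985 and 3259.8 CPM in Gzmk cells, against 1347 and 1719.8 CPM in the remaining cells (log2 fold change 1.10). Fasl, the death ligand of Fas, was at 73.0 and 76.3 CPM in Gzmk cells, against 29.7 and 33.3 CPM in the remaining cells (log2 fold change 1.31). Crtam and Slamf7, surface receptors of cytotoxic lymphocytes, rose by log2 fold changes of 1.45 and 1.39. The pattern was not the same for granzyme A: Gzma was called lower (log2 fold change -0.79, adjusted p = 0.0037), with 30.3 and 13.5 CPM in Gzmk cells, against 30.4 and 53.2 CPM in the remaining cells. In mouse 1, 64.5% of the Gzma UMIs in Gzmk cells came from a single cell, the call was lost without the block (adjusted p = 0.19), and the sign turned (0.28) against remaining cells without any Gzmk UMI. Granzyme genes belong to 1 gene family, and how far reads are shared among them was not tested.

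Among 17 tested genes for secreted cytokines and chemokines and for surface ligands, 4 rose and 11 fell (4 and 7 without the block), with a median log2 fold change of -0.52. The 4 that rose were Il10, Ifng, Ccl3 and Il21. Il10, the suppressive cytokine interleukin 10, was at 46.3 and 30.5 CPM in Gzmk cells of mouse 1 and mouse 2, against 5.4 and 8.8 CPM in the remaining cells (log2 fold change 2.46, SE 0.16, adjusted p = 7.0e-12). Only 7.82% and 8.71% of Gzmk cells had an Il10 UMI, spread over 92 and 74 clonotypes, so that the level came from a minority of cells. Ifng, interferon γ, was at 219.7 and 228 CPM in Gzmk cells, against 124 and 110.2 CPM in the remaining cells (log2 fold change 1.00, SE 0.05, adjusted p = 2.3e-14), and 48.3% and 51.2% of Gzmk cells had an Ifng UMI. With cells thinned to 3000 UMIs, Ifng was seen in 37.9% and 39.6% of Gzmk cells, against 16% and 18.2% of the remaining cells, and Ifng together with Il10 in 3.32% and 3.44% of Gzmk cells. Ccl3, an inflammatory chemokine, was at 573 and 689.97 CPM in Gzmk cells, against 317 and 370.3 CPM in the remaining cells (log2 fold change 0.94). Il21, a helper cytokine for B cells, was at 106 and 105 CPM in Gzmk cells, against 89.3 and 78.1 CPM in the remaining cells (log2 fold change 0.40). The share of cells with Il21 did not rise in the same way. After thinning it was 16.5% and 16.4% of Gzmk cells, against 16.8% and 15.9% of the remaining cells. It was 17.8% and 16.9% of cells with neither, and 10.9% and 12.3% of NK receptor cells. Among those that fell were Tnfsf8, the CD30 ligand (log2 fold change -2.04), the CD40 ligand gene Cd40lg (-1.12) and Il4 (-2.81). Il2 also fell, by 1.25 on the log2 scale, and its call was lost without the block (adjusted p = 0.055).

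Of 14 genes tied to Eomes-positive or type 1 regulatory CD4 cells, 9 rose and 3 fell, with a median log2 fold change of 0.83. Eomes (chromosome 9, 118478212 to 118486132) was at 219 and 199.8 CPM in Gzmk cells, against 66.4 and 55.2 CPM in the remaining cells (log2 fold change 1.85, SE 0.05, adjusted p = 3.3e-19). In the remaining cells most of this lay in NK receptor cells, with 228 and 159 CPM, while cells with neither had 8.79 and 6.66 CPM. Prdm1, the effector factor Blimp-1, was at 54.0 and 56.4 CPM in Gzmk cells, against 19.8 and 23.1 CPM in the remaining cells. Il10ra, which binds interleukin 10, was at 198 and 219.7 CPM in Gzmk cells, against 93.8 and 92.3 CPM in the remaining cells. The inhibitory receptor Lag3 was at 521 and 555 CPM in Gzmk cells, against 278 and 301 CPM in the remaining cells. Havcr2 (TIM-3), Entpd1 (the ectonucleotidase CD39), Tigit and Maf rose by log2 fold changes of 1.06, 1.19, 0.69 and 0.55. Pdcd1, which encodes PD-1, did not pass (log2 fold change 0.09, adjusted p = 0.059), although it passed with 1 cell per clonotype and class (0.33). Cd226, the activating counterpart of TIGIT, fell by 1.45 on the log2 scale.

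The working name of these cells calls them Th1 cells, and the Th1 list gave a mixed answer. Of its 15 genes, 7 rose and 4 fell, with a median log2 fold change of 0.10. Without the block 4 rose and 3 fell, and with 1 cell per clonotype and class 10 rose and 3 fell. Tbx21, the defining factor of the Th1 lineage, was at 70.0 and 68.9 CPM in Gzmk cells of mouse 1 and mouse 2, against 63.5 and 72.1 CPM in the remaining cells (log2 fold change 0.10, adjusted p = 0.19). These values overlapped, with mouse 1 slightly higher and mouse 2 slightly lower in Gzmk cells. With 1 cell per clonotype and class Tbx21 was called higher (log2 fold change 0.52, adjusted p = 5.0e-05), and likewise against remaining cells without any Gzmk UMI (0.30). Runx3 and Il12rb1 (a subunit of the interleukin 12 receptor) rose by 0.96 and 0.81. Cxcr3, a receptor that leads T cells to inflamed tissue, was called higher by 0.34 and lost the call without the block (adjusted p = 0.061), and Cxcr6 did not pass (-0.03). Both subunits of the interleukin 18 receptor fell, Il18r1 by 0.98 and Il18rap by 0.88 on the log2 scale. The cells are therefore called Gzmk cells here rather than Th1 cells.

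**Figure D2:**
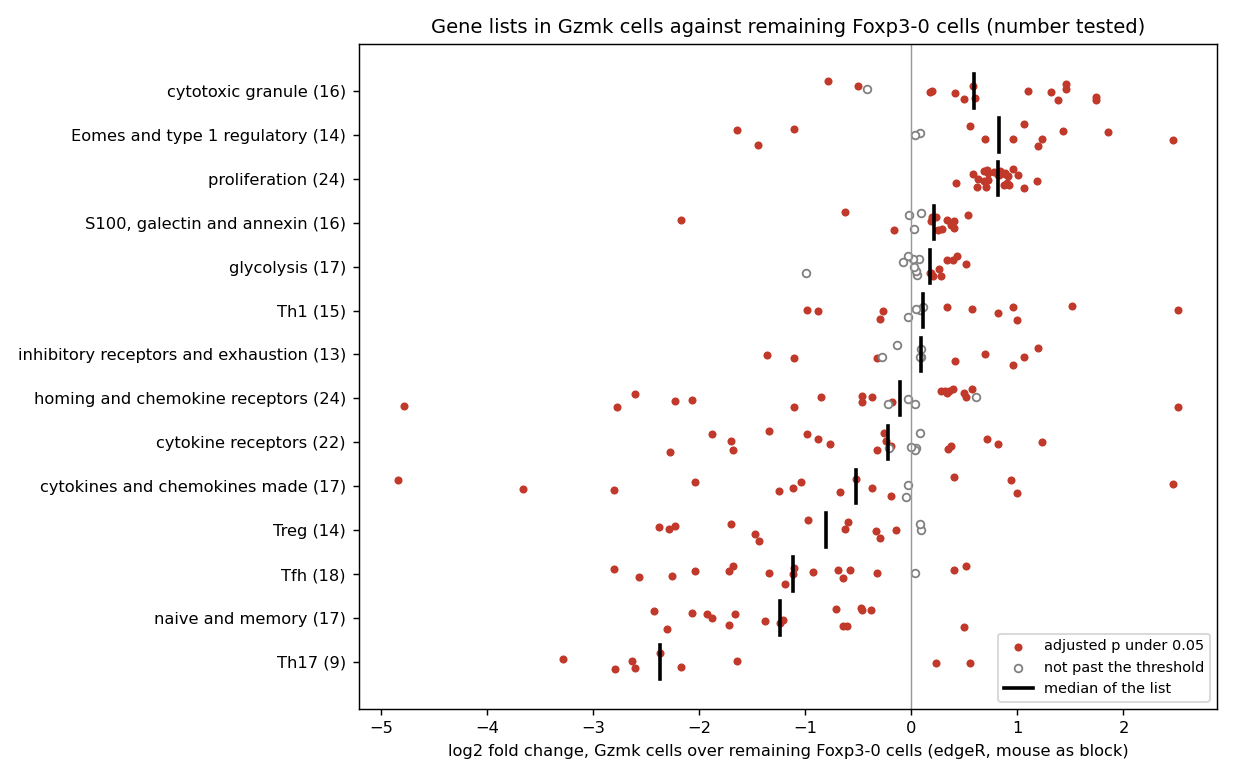
Log2 fold change of Gzmk cells over remaining cells for each tested gene of 14 lists (number tested in brackets), with red points past an adjusted p of 0.05, open points not past it and a black bar at the list median. The cytotoxic and proliferation lists lie mostly to the right (medians 0.59 and 0.82) and the naive, T follicular helper and Th17 lists to the left (medians -1.24, -1.11 and -2.38).

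Genes of less differentiated cells were lower as a group. Of 17 naive and memory genes, 16 fell and 1 rose, with a median log2 fold change of -1.24, and the same counts were found without the block. Tcf7, the memory factor TCF-1, was at 244 and 252 CPM in Gzmk cells of mouse 1 and mouse 2, against 617 and 608 CPM in the remaining cells (log2 fold change -1.24). Il7r, the receptor for a survival cytokine, was at 33.6 and 68.8 CPM in Gzmk cells, against 164 and 220.1 CPM in the remaining cells (log2 fold change -1.89). In both genes all Gzmk cell values lay below all remaining cell values. Id3 was at 93.7 and 72.2 CPM in Gzmk cells, against 323 and 250.2 CPM in the remaining cells, and Ccr7, which directs cells to lymph nodes, at 25.1 and 27.7 CPM against 99.8 and 135 CPM.

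Of 18 T follicular helper genes, 15 fell and 2 rose (Il21 and Sh2d1a), with a median of -1.11. Bcl6, the defining factor of that lineage, fell by 0.70 and the chemokine receptor Cxcr5 did not pass (log2 fold change 0.03). Of 14 regulatory T cell genes other than Foxp3, 12 fell and none rose. Of 9 tested Th17 genes, 7 fell and 2 rose, with a median of -2.38, and of 6 tested Th2 genes 4 fell, Gata3 among them (-0.96), and none rose. No T helper list other than Th1 had more genes higher than lower.

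All 24 genes of the proliferation list rose, with a median log2 fold change of 0.82, and 16 rose without the block. Pclaf and Rrm2, which serve DNA replication, rose by 1.18 and 1.06. Mki67, the Ki-67 antigen, rose by 0.72, a call that was lost without the block (adjusted p = 0.11) and with DESeq2 (adjusted p = 0.069). Of 17 glycolysis genes 9 rose and none fell (2 without the block), with a median of 0.17. Of 13 apoptosis genes 8 rose and 3 fell (4 and 2 without the block), and among those that fell was Bcl2, which protects cells from death (log2 fold change -1.38).

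Among trafficking genes the count was even, with 9 of 24 higher and 11 lower (5 and 8 without the block). Itga4 rose by 0.52, and S1pr1, an exit receptor of lymphoid tissue, fell by 0.47. Of 22 cytokine receptor genes 5 rose and 12 fell (5 and 7 without the block), with Il10ra and Il12rb1 among those that rose and Il6ra (-1.69) and Il2ra (-1.71) among those that fell. Of 17 genes that follow T cell receptor signals 6 rose and 6 fell (2 and 2 without the block). Of 15 tested interferon response genes 2 rose and 9 fell, with 1 and 4 without the block. Of 16 S100, galectin and annexin genes 10 rose and 3 fell, with 5 and 2 without the block, and Anxa1 fell most (-2.18). Of 21 lineage and effector transcription factors 5 rose and 10 fell, and of 13 inhibitory receptor and exhaustion genes 5 rose and 3 fell. Of 11 tested genes of the stress of cell dissociation 2 rose and 3 fell.

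The largest increases among called genes with at least 20 CPM in 1 class included several with no established role in T cells. Gcg, the gene of the glucagon precursor (chromosome 2, 62474530 to 62483650), was at 264 and 253 CPM in Gzmk cells, against 54.9 and 36.3 CPM in the remaining cells (log2 fold change 2.59). It was found in 204 and 128 Gzmk cells (11.5% and 9.86%) of 132 and 88 clonotypes, with up to 226 and 264 UMIs in 1 cell. Esm1, endothelial cell specific molecule 1, was at 100.2 and 99.4 CPM in Gzmk cells, against 20.2 and 12.8 CPM in the remaining cells (log2 fold change 2.69). Its gene (chromosome 13, 113209659 to 113218098, plus strand) lies wholly within the annotated Gzmk gene on the other strand, so its value is uncertain. Others were Il10, the long noncoding RNA Ifngas1 (2.41), the integrin subunit gene Itgad (2.23), Gm30211 (2.14), 1700029J03Rik (2.02), Ctla2a (2.00) and Rasgef1b (1.95). Of the other genes named in this text, Anxa1, Cxcl10, Cxcr6, Gpr183, Pclaf and Xcl1 also lie wholly within an annotated gene on the other strand. Ctla2a, Gata3, Gm30211, Ifitm2, Ifng, Spp1, Stard5 and Tcf7 share bases with an annotated gene on their own strand. Whether counting used the strand is not given in the sources used here, so reads of these genes could be split differently.

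The 10 largest decreases were Ifitm1 (log2 fold change -3.52), Ifitm2 (-3.00), Il4 (-2.81), Ifitm3 (-2.79), Igfbp4 (-2.43), Tmem176b (-2.38), B630019A10Rik (-2.37), Ly6c1 (-2.31), Plcb4 (-2.28) and Sostdc1 (-2.26). Ifitm1, an interferon-induced membrane protein, was at 17.8 and 14.7 CPM in Gzmk cells of mouse 1 and mouse 2, against 164 and 241 CPM in the remaining cells. Ifitm genes lie in a family of near copies. Igfbp4, which is high in naive T cells, was at 27.5 and 10.5 CPM in Gzmk cells, against 90.8 and 139 CPM in the remaining cells.

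Markers of other cell types were low in Gzmk cells. Cd4 was called slightly lower in Gzmk cells (log2 fold change -0.15), a call lost without the block (adjusted p = 0.21), and of 9 CD4 T cell identity genes 6 rose and 1 fell (1 and 0 without the block). Cd8a had 0 UMIs in Gzmk and remaining cells of both mice, and the CD8 T cell list summed to 7.35 and 4.91 CPM in Gzmk cells, against 8.26 and 6.30 CPM in the remaining cells. NK markers summed to 9.86 and 14.7 CPM in Gzmk cells, against 17.5 and 18.9 CPM in the remaining cells, with Ncr1 at 0 in Gzmk cells, and no Gzmk cell carried the invariant NKT chain TRAV11 with TRAJ18. The myeloid list summed to 86.7 and 63.3 CPM in Gzmk cells, against 48.3 and 34.4 CPM in the remaining cells, and Cd68 alone gave 42.3 and 40.6 CPM of this in Gzmk cells, against 12.3 and 10.4 CPM. The γδ list summed to 52.2 and 3.17 CPM in Gzmk cells, against 10.7 and 6.46 CPM in the remaining cells. In mouse 1 this came from Trdc, 97.7% of whose UMIs in Gzmk cells lay in 3 clonotypes. The B cell list summed to 31.7 and 36.8 CPM in Gzmk cells, against 100.3 and 104 CPM in the remaining cells, mostly from Ighm, with 4 and 3 of its 8 genes at 0 in Gzmk cells. The dendritic, erythroid, platelet and invariant NKT lists summed to at most 11.9 CPM in Gzmk cells of either mouse, and to at most 44.6 CPM in the remaining cells. The part of these transcripts in the differences above was not tested.

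Within the Gzmk cells, levels of many of these genes followed the number of Gzmk UMIs per cell. This ordering is a description, since Gzmk UMIs defined both the bins and the cells, and cells with more Gzmk UMIs were also deeper, with median UMIs of 4857.5, 4537, 5332 and 7430.5 in mouse 1 at 1, 2 to 4, 5 to 9 and at least 10 Gzmk UMIs, and of 5500, 5301, 5863.5 and 7742 in mouse 2. Eomes was at 45.5, 169.7, 224 and 288 CPM in mouse 1 over these bins and at 60.7, 105, 244 and 272 CPM in mouse 2. It was therefore higher in each bin than in the one before. Tcf7 ran the other way, at 548, 317, 203 and 139.6 CPM in mouse 1 and 562, 351, 202 and 123 CPM in mouse 2. Cells with a single Gzmk UMI lay between the cells with neither and the other Gzmk cells for Tcf7 (774 and 807 CPM in cells with neither) and for Eomes. Ifng showed no such order above 1 UMI, with 283, 272 and 207 CPM in mouse 1 and 246, 239.7 and 240.1 CPM in mouse 2. Tbx21 was at 93.8, 69.8, 86.0 and 55.4 CPM in mouse 1 and at 76.6, 105, 71.3 and 48.0 CPM in mouse 2, lowest in both mice at 10 or more UMIs.

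**Figure D3:**
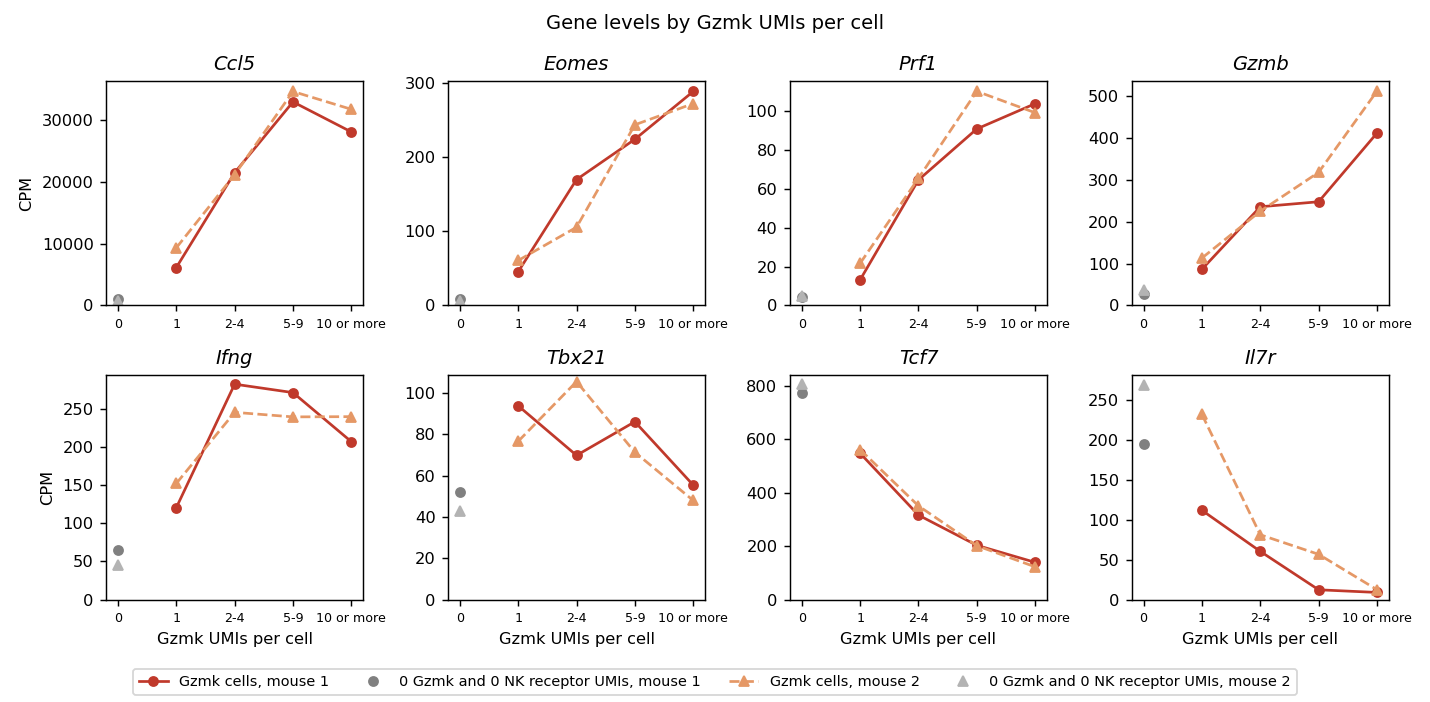
Level in CPM of 8 genes in Gzmk cells grouped by Gzmk UMIs per cell (solid line and circles mouse 1, dashed line and triangles mouse 2), with cells with neither Gzmk nor NK receptor UMIs in grey at 0. Eomes is higher in each bin than in the one before in both mice, and Tcf7 is lower, from 548 and 562 CPM at 1 UMI to 139.6 and 123 CPM at 10 or more.

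NK receptor cells shared the high Ccl5 and Eomes levels of the Gzmk cells, and the second comparison asked where the classes part. Gzmk cells had more Gcg, Cxcr3, Cxcr5 and Il21, and less Tbx21, Klf2, Zeb2, Cxcr6 and S100, galectin and annexin transcripts, while Eomes did not pass the test. Of 11619 genes tested 1307 (11.2%) were called, 557 (4.79%) higher and 750 (6.45%) lower in Gzmk cells. Without the block 73 were called, 12 higher and 61 lower. Klr receptor genes travel with the 3 genes that defined the NK receptor class and are not read here. Other genes that travel with those 3 genes or with Gzmk from cell to cell also had to differ, because UMIs of the same cells chose both classes. Which of the genes below do so was not tested.

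Gcg was at 264 and 253 CPM in Gzmk cells of mouse 1 and mouse 2, against 76.9 and 81.9 CPM in NK receptor cells (log2 fold change 1.71). Cxcr3 was at 351 and 331 CPM in Gzmk cells, against 209 and 191 CPM in NK receptor cells (0.78). Each of these genes, with Il21 (0.94), Cxcr5 (0.87) and Smox, a polyamine oxidase (1.39), was called with and without the block. Il10 at 46.3 and 30.5 CPM in Gzmk cells, against 11.2 and 23.4 CPM in NK receptor cells, was called only with it (1.05, adjusted p = 0.26 without), and so were Esm1 (1.39, adjusted p = 0.063 without) and Ccr4 (1.04, adjusted p = 0.12 without). Of 17 tested T follicular helper genes 9 rose and 2 fell, with a median of 0.35 against 0.00073 over all tested genes, and 2 rose without the block.

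On the other side, Klf2, which sustains exit receptors, was at 492 and 495 CPM in Gzmk cells, against 849 and 1005 CPM in NK receptor cells (log2 fold change -0.89). Zeb2, a factor of terminal effector cells, was at 29.6 and 31.5 CPM in Gzmk cells, against 60.8 and 80.5 CPM in NK receptor cells (-1.20). Both genes were called with and without the block. Tbx21 was at 70.0 and 68.9 CPM in Gzmk cells, against 95.1 and 134 CPM in NK receptor cells (-0.71), lower in both mice but lost without the block (adjusted p = 0.13). Cxcr6 was at 113 and 131 CPM in Gzmk cells, against 190.1 and 262 CPM in NK receptor cells (-0.88, adjusted p = 0.073 without the block). Gzma fell by 2.49 on the log2 scale. The largest decreases that met the rule besides Klr genes were Ifitm1 (-4.69), AA467197 (-4.01) and Ifitm2 (-3.82). Of 16 genes for S100 proteins, galectins and annexins, which are often high in migrating effector cells, 15 fell and none rose, with a median of -0.47, and 5 fell without the block.

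Cytotoxic genes did not separate these classes in 1 direction, with 3 of 16 higher and 7 lower, and 0 and 1 without the block. Eomes was at 219 and 199.8 CPM in Gzmk cells, against 228 and 159 CPM in NK receptor cells (log2 fold change 0.15, SE 0.05, adjusted p = 0.061), so the mice differed in direction. Gzmb was called slightly higher (0.27), Prf1 and Nkg7 slightly lower (-0.21 and -0.45), and all were lost without the block (adjusted p between 0.11 and 0.45). With 1 cell per clonotype and class the sign of Gzmb turned (-0.31), while Nkg7 kept its sign and lost its call. Of 24 proliferation genes 5 rose and 2 fell, and none passed without the block. This list had no settled direction, since 11 rose and none fell after thinning to 3000 UMIs, and none rose and 15 fell with 1 cell per clonotype and class.

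Gzmk cells were clonally expanded. Of them 74.9% in mouse 1 and 74.2% in mouse 2 belonged to clonotypes with at least 2 kept cells, against 52.8% and 55.3% of the remaining cells, and 53.9% and 53.5% to clonotypes with at least 5, against 26.8% and 35.0%. They came from 798 and 595 clonotypes. The remaining cells pool NK receptor cells with cells with neither, and NK receptor cells were also more frequent in larger clonotypes. NK receptor cells made up 8.14% and 10.4% of cells without Foxp3 UMIs in clonotypes with 1 kept cell. In clonotypes with at least 5 kept cells they made up 22.3% and 40.5%. The contrast with the remaining cells therefore does not set Gzmk cells apart from NK receptor cells in expansion. The share of Gzmk cells among cells without Foxp3 UMIs was 22.3% (interval 20.5 to 24.2%) and 16.2% (14.6 to 17.8%) in clonotypes with 1 kept cell. It was 30.4% and 25.4% with 2 to 4 cells and 47.4% and 34.0% with 5 to 9 cells. At 50 cells or more it was 64.4% (60.8 to 67.9%) in mouse 1 and 33.2% (30.6 to 35.9%) in mouse 2, where 50% of such cells were NK receptor cells, against 19.3% in mouse 1. Of the 6 size classes, the mice differed most in the largest.

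**Figure D4:**
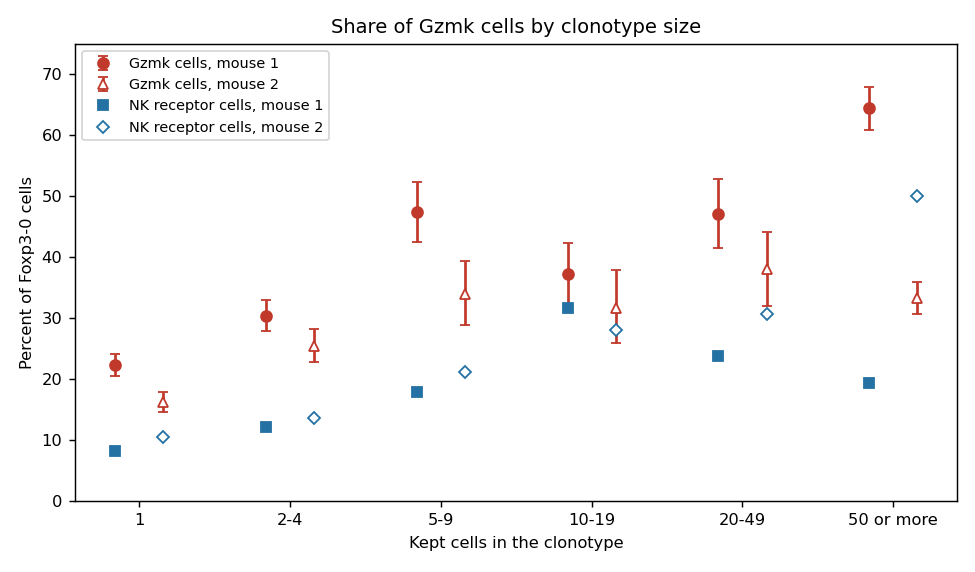
Percent of Foxp3-0 cells that were Gzmk cells (red, with exact 95% intervals) or NK receptor cells (blue) by the number of kept cells in the clonotype, with filled points for mouse 1 and open points for mouse 2. Singletons held 22.3% and 16.2% Gzmk cells, and clonotypes of 50 or more cells 64.4% in mouse 1 and 33.2% in mouse 2.

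Clonotypes varied widely in their share of Gzmk cells. Among clonotypes with at least 10 Foxp3-0 cells, 43 in mouse 1 and 37 in mouse 2, the share ran from 0% to 91.7% with a median of 43.75% in mouse 1, and from 0% to 93.75% with a median of 25% in mouse 2. At least 75% of the cells were Gzmk cells in 4 and 6 of them, and at most 10% in 4 and 7. Cells of a clonotype share a receptor and an ancestor and are not replicates. The first TRBV31 clonotype had 173 Gzmk cells of 220 (78.6%, interval 72.6 to 83.9%) and the second 165 of 214 (77.1%, 70.9 to 82.6%), so the receptors that differ by T16G in the β chain CDR3 had like shares. The TRBV14 clonotype of mouse 1 had 45 of 87 (51.7%, 40.8 to 62.6%). In mouse 2 the TRBV13-1 clonotype had 121 of 155 (78.1%, 70.7 to 84.3%) and the TRBV3 clonotype 90 of 108 (83.3%, 74.9 to 89.8%). The TRBV29 clonotype had only 95 Gzmk cells of 362 (26.2%, 21.8 to 31.1%), and 239 of its cells were NK receptor cells.

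**Figure D5:**
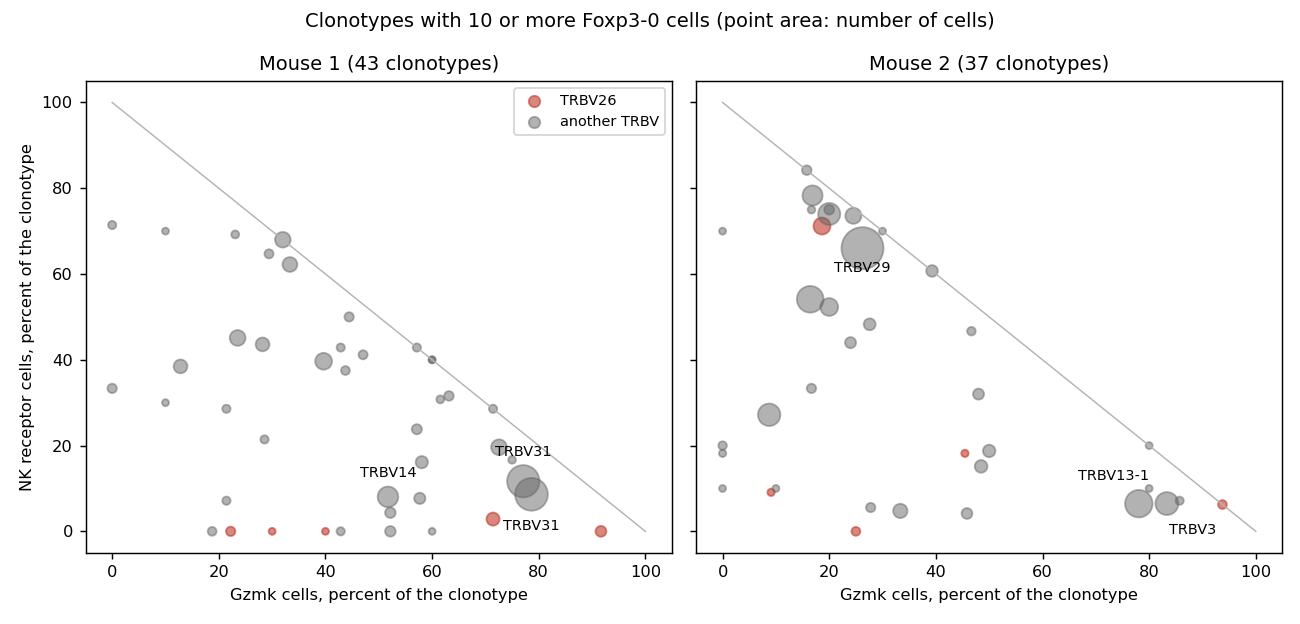
Each point is a clonotype with at least 10 Foxp3-0 cells, with its percent of Gzmk cells on the x axis, its percent of NK receptor cells on the y axis and an area that grows with its cell number, in red for TRBV26 and grey for another TRBV. The grey line marks clonotypes made up wholly of these classes. The 3 clonotypes with the most Gzmk cells in each mouse are named, and the TRBV29 clonotype of mouse 2 (26.2% Gzmk cells) lies apart from TRBV13-1 and TRBV3 at 78.1% and 83.3%.

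Gzmk cells of different clonotypes also differed in level. Ccl5 was at 44907 and 38305 CPM in Gzmk cells of the first and second TRBV31 clonotypes and at 11674 CPM in those of the TRBV14 clonotype. It was at 50824, 40260.3 and 55448 CPM in those of the TRBV13-1, TRBV29 and TRBV3 clonotypes. Gzmb varied more, with 419 and 582 CPM in the TRBV31 clonotypes, 62.7 CPM in TRBV14, 1150.2 CPM in TRBV13-1, 162 CPM in TRBV29 and 1016 CPM in TRBV3. The TRBV29 cells instead had the most Ccl3 (1838 CPM, against 259 to 528 CPM in the other 5), Nkg7 (8145 CPM, against 2714 to 3701 CPM), Lag3 (1179 CPM, against 304 to 459 CPM) and Spp1 (813 CPM, against 0 to 2.6 CPM). Spp1 encodes the matrix protein osteopontin, and this clonotype held 64.2% of its UMIs in Gzmk cells of mouse 2. Eomes varied less, between 199 and 351 CPM over the 6 clonotypes.

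By V gene, the share of Gzmk cells averaged over the mice was highest for TRBV31 at 70.6% and 36.1%, TRBV16 at 51.3% and 30.4% and TRBV14 at 43.8% and 17.5% of Foxp3-0 cells in mouse 1 and mouse 2. This average was lowest for TRBV13-3 at 24.7% and 15.0%, TRBV2 at 28.7% and 13.03% and TRBV12-2 with TRBV13-2 at 24.03% and 18.1%, among 10 V genes with at least 100 such cells in each mouse. The order was not the same in each mouse, with TRBV14 below TRBV12-2 with TRBV13-2 in mouse 2. Averaged over clonotypes, TRBV31 had 23.7% and 20.01%, TRBV16 had 28.4% and 21.1% and TRBV14 had 19.8% and 5.02%. TRBV26, the Vβ3 gene of the study, had 31.3% and 22.7% by cells and 26.1% and 20.2% over clonotypes, and TRBV23 had 32.5% and 25.5% by cells and 27.9% and 22.9% over clonotypes. TRBV26 was used by 33.5% and 29.8% of Gzmk cells, against 39.8% and 33.9% of the remaining cells. Among Gzmk cells, with 798 and 595 clonotypes, 3 TRB clonotypes were found in both mice. Among all kept cells, with 3166 and 3316 clonotypes, 63 were. Matched by V, J and CDR3 amino acids, 10 β chains of Gzmk cells were found in both mice, against 172 among all kept cells. The kept cells include the Gzmk cells and hold many more clonotypes, so these counts are not rates of sharing.

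The third comparison asked how Gzmk cells of clonotypes with at least 5 kept cells differed from Gzmk cells of clonotypes with 1. Expanded Gzmk cells had more granule transcripts, more Ccl3 and less of the naive, memory and T follicular helper genes, while Il10 and Tbx21 did not pass the test. Of 10450 genes tested 1268 (12.1%) were called, 606 (5.8%) higher and 662 (6.33%) lower, and 368 were called without the block. In this comparison the spread is wholly the pooled one, so a gene's own variation between hosts has no weight and its p-values are not printed. With 1 cell per clonotype and class 155 genes were called. Single cells more often had exactly 1 Gzmk UMI, where Eomes was lower and Tcf7 higher than in other Gzmk cells. At least 2 Gzmk UMIs were found in 857 of 957 and 608 of 694 expanded cells, against 285 of 446 and 249 of 335 single cells. With that minimum 562 genes were called, and the part of this imbalance in the differences below was not tested.

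Of 14 tested cytotoxic genes 10 rose and none fell, with a median log2 fold change of 0.55 against 0.00045 over all tested genes. Without the block 7 rose, and with 1 cell per clonotype and class 3 rose. Prf1 was at 111 and 121 CPM in expanded Gzmk cells of mouse 1 and mouse 2, against 34.4 and 33.9 CPM in single ones (log2 fold change 1.80). Gzmb was at 356 and 492 CPM in expanded cells, against 169.8 and 168 CPM in single ones (1.35). Nkg7 was at 3674 and 4356 CPM in expanded cells, against 1751 and 1742 CPM in single ones (1.24). The single cells of both mice were close to each other in these genes, and all expanded values lay above them. Of 15 tested cytokine and chemokine genes 3 rose and 7 fell, with a median of -0.60. Ccl3 rose most among them, at 821 and 991 CPM in expanded cells, against 294 and 142 CPM in single ones (2.11). Eomes was at 275 and 241 CPM in expanded cells, against 134 and 146 CPM in single ones (0.93), and Ifng at 247 and 275 CPM in expanded cells, against 169 and 146 CPM in single ones (0.77). The largest increases by the rule also held Wdr95 (2.54), Spp1 (2.43), Ociad2 (2.16) and Nr4a2, an orphan nuclear receptor induced in activated T cells (1.97). Spp1 was at 41.5 and 127 CPM in expanded cells, against 23.6 and 3.6 CPM in single ones, and in mouse 2 this was largely the TRBV29 clonotype.

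Of 17 naive and memory genes 15 fell and 1 rose, with a median of -1.19 (13 and 0 without the block), and of 17 tested T follicular helper genes 15 fell and 1 rose, with a median of -1.02 (13 and 0 without the block). With 1 cell per clonotype and class 10 naive and memory genes and 5 T follicular helper genes fell, and 1 and 0 rose. Tcf7 was at 153 and 148 CPM in expanded Gzmk cells, against 432 and 439 CPM in single ones (log2 fold change -1.49). Id3 was at 43.8 and 36.2 CPM in expanded cells, against 179.6 and 126 CPM in single ones (-1.90), and Il7r at 17.4 and 28.0 CPM, against 74.1 and 124 CPM (-2.07). Ccr7, Ifitm1 and Igfbp4 fell by 2.76, 4.29 and 6.63 on the log2 scale, and were among the 5 largest decreases together with Ifitm2 (-2.62) and B630019A10Rik (-2.37). Il10 was at 46.0 and 29.2 CPM in expanded cells, against 46.8 and 28.3 CPM in single ones (0.04, SE 0.14), with overlapping values. Tbx21 had a log2 fold change of -0.12. Of 24 proliferation genes 17 rose and none fell, with a median of 0.32. Without the block 2 rose, after thinning 2, and with 1 cell per clonotype and class 4.

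The fourth comparison set Gzmk cells with TRBV26 against Gzmk cells with another TRBV, since Vβ3 is the receptor class of the study. TRBV26 Gzmk cells had more Cxcl10, Gcg, Il10 and Il21, and less Eomes, Prf1, Xcl1 and Spp1. Of 10816 genes tested 515 (4.76%) were called, 274 (2.53%) higher and 241 (2.23%) lower in TRBV26 cells, with 79 without the block and 76 with 1 cell per clonotype and class. Large clonotypes held a smaller share of TRBV26 Gzmk cells in both mice: 23.8% and 17.3% of them were in clonotypes of at least 5 kept cells, against 69.0% and 68.8% of other Gzmk cells.

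Cxcl10, a ligand of CXCR3, was at 36.6 and 34.2 CPM in TRBV26 Gzmk cells of mouse 1 and mouse 2, against 10.99 and 6.6 CPM in other Gzmk cells (log2 fold change 1.97). Il21 was at 161 and 160.2 CPM in TRBV26 cells, against 78.8 and 80.6 CPM in other cells (1.00). Both were called without the block and with 1 cell per clonotype and class. Il10 was at 73.4 and 48.9 CPM in TRBV26 cells, against 32.9 and 22.2 CPM in other cells (1.14), with an adjusted p of 0.061 without the block. Gcg was at 488 and 350.01 CPM in TRBV26 cells, against 154 and 209.8 CPM in other cells (1.22), and did not pass with 1 cell per clonotype and class (0.33). Bmp7 (1.30), Sccpdh (1.29) and Gstp2 (1.23) were the other large increases, and Gstp2 has near copies and lost its call without the block (adjusted p = 0.092).

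Of 17 T follicular helper genes 9 rose and none fell, with a median of 0.41 against 0.00042 over all tested genes. Without the block 3 rose, and with 1 cell per clonotype and class 1 rose. Tcf7 was at 313 and 336 CPM in TRBV26 cells, against 209 and 215 CPM in other cells (log2 fold change 0.60). The naive and memory genes did not rise as a group, since 4 of 17 rose and 5 fell, with a median of -0.15. Without the block 1 rose and 3 fell, and with 1 cell per clonotype and class 0 rose and 7 fell. Of 15 cytotoxic genes 1 rose and 9 fell, with a median of -0.33 (0 and 4 without the block, and 0 and 2 with 1 cell per clonotype and class). Prf1 was at 46.6 and 49.6 CPM in TRBV26 cells, against 97.9 and 97.5 CPM in other cells (-1.04), and Eomes at 143 and 148 CPM, against 256 and 223 CPM (-0.74). With 1 cell per clonotype and class Prf1, Eomes and Tcf7 kept their direction and did not pass (-0.47, -0.35 and 0.14). The largest decreases were Igfbp4 (-4.83), Spp1 (-3.94), Xcl1 (-2.69), Gm30211 (-2.13) and Wdr95 (-2.08). In mouse 2 the TRBV29 clonotype held 64.2% of the Spp1 UMIs of Gzmk cells. Xcl1, a chemokine for cross-presenting dendritic cells, was at 7.8 and 13.7 CPM in TRBV26 cells, against 81.8 and 46.1 CPM in other cells. Ifng and Tbx21 did not pass (-0.09 and 0.22).

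The last comparison asked, as an interaction, whether the difference between Gzmk and remaining cells was larger in TRBV26 cells than in other cells. Of 11885 genes tested 411 (3.46%) were called, 329 (2.77%) with a larger value in TRBV26 cells and 82 (0.69%) with a smaller one, but only 4 without the block. Nkg7 was at 2337 and 2304 CPM in TRBV26 Gzmk cells of mouse 1 and mouse 2, against 563 and 629.8 CPM in TRBV26 remaining cells. It was at 3306 and 3689.7 CPM in other Gzmk cells, against 1808 and 2229 CPM in other remaining cells, an interaction of 1.16 on the log2 scale (SE 0.08, adjusted p = 1.9e-07). Eomes gave an interaction of 1.11, with 143 and 148 CPM in TRBV26 Gzmk cells, against 30.3 and 15.3 CPM in TRBV26 remaining cells, and 256 and 223 CPM in other Gzmk cells, against 87.6 and 73.8 CPM in other remaining cells. For Eomes the call was lost without the block (adjusted p = 0.25) and with 1 cell per clonotype and class (adjusted p = 0.75). TRBV26 was used by 21.3% and 15.95% of NK receptor cells, against 44.9% and 41.9% of cells with neither, so the remaining cells with TRBV26 held fewer NK receptor cells. The part of this makeup in the interaction was not tested.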

How the data were processed

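The deposited matrices hold raw UMI counts per gene and barcode, and the deposited contig tables hold V and J genes, CDR3 sequences and read and UMI counts per contig. Cell Ranger 7.0.1 and the builds mm10 and GRCm38 are named per the submitters' processing notes, and the strand setting of the counting is not given in the sources used here. For each mouse, UMIs were added up over the cells of a class. The 5 comparisons used edgeR 4.0.16 (quasi-likelihood F test) with TMM scaling, low genes removed by filterByExpr and Benjamini-Hochberg adjustment at 0.05. The mouse is a block because both classes come from the same animal and library, and deviations from class means correlated at 0.25 to 0.47 across genes between classes of a mouse. T cell receptor segments, Gzmk, Foxp3, Cx3cr1, Klrd1, Klra3, Ccl5 and Ccl4 were not tested. CPM are counts per 1000000 UMIs of a sum, without TMM scaling, and fold changes come from the fit. The test was checked on simulated counts. No doublet caller was run: barcodes with 2 or more TRB contigs were left out, and removing cells above 3 times the median UMIs was an alternative, as were DESeq2 1.42.0 and no block.

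The members, lists, comparisons and alternatives were chosen with earlier results of these data known. Named genes are the 10 largest changes each way against remaining cells, and 5 in other comparisons, among called genes that reach 20 CPM in a class and move alike in the mice. The 3 smallest p of each list and a fixed set of lineage and effector genes are named too. Some genes that met this rule are not reported here. Further list members and the genes given by clonotype were chosen after their values were seen. Gene positions come from GENCODE M21 on GRCm38.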

Additional observations from a re-analysis of the deposited data

Results flagged for a closer look

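An interaction of the Gzmk cell difference with V gene class was called for 411 of 11885 genes (3.46%), by edgeR with the mouse as a block. Only 4 genes were called without the block, and 99 with 1 cell per clonotype and class. The remaining cells with TRBV26 held fewer NK receptor cells, and the part of this makeup was not tested. Of the 411, the 5 with the largest and the 5 with the smallest interaction that met the naming rule are given here. Cdkn2a, a cell cycle inhibitor gene, had an interaction of 2.27 on the log2 scale, with 22.7 and 22.9 CPM in TRBV26 Gzmk cells of mouse 1 and mouse 2, against 4.1 and 2.6 CPM in TRBV26 remaining cells, and 18.2 and 15.2 CPM in other Gzmk cells, against 13.2 and 10.9 CPM in other remaining cells. Il10 had an interaction of 2.05, with 73.4 and 48.9 CPM in TRBV26 Gzmk cells, against 4.8 and 4.5 CPM in TRBV26 remaining cells, and 32.9 and 22.2 CPM in other Gzmk cells, against 5.7 and 10.7 CPM in other remaining cells. For Cxcl10, with an interaction of 1.65, the CPM differed in direction between the V gene classes: TRBV26 Gzmk cells had 36.6 and 34.2 CPM, against 27.3 and 27.9 CPM in TRBV26 remaining cells, and other Gzmk cells had 10.99 and 6.6 CPM, against 30.3 and 15.8 CPM in other remaining cells. The interaction was 1.72 for 1500009L16Rik and 1.69 for Rasgef1b. It was -0.76 for Nrip1, -0.88 for Gpr183, a receptor for oxysterols that guides lymphocytes, -0.88 for Slc9a7, -0.88 for Stard5 and -1.08 for H2-Q2, a gene with near copies. Of these, Il10, Rasgef1b, Cxcl10, Nrip1, Gpr183, Slc9a7, Stard5 and H2-Q2 lost their call without the block, and Cdkn2a lost it with cells thinned to 3000 UMIs (1.27). Together with Nkg7 and Eomes, 12 genes have an interaction value in this text. Of these 12, 6 lost their call with 1 cell per clonotype and class and 4 with DESeq2. After thinning 3 lost it, and without cells above 3 times the median UMIs 2 did.

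Barcodes with 0 Foxp3 UMIs that met the gene and mitochondrial limits without a TRB contig entered no comparison, and a share of them met the UMI part of the rule. This was so for 861 of 2624 (32.8%, interval 31.0 to 34.6%) in mouse 1 and 486 of 2010 (24.2%, 22.3 to 26.1%) in mouse 2. Among kept Foxp3-0 cells the shares were 35.0% and 25.03%. Among such barcodes with 2 or more TRB contigs they were 33.0% and 23.8%.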

How the results depend on the processing

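The counts of called genes moved by over 1.5 times under several settings. For Gzmk cells against remaining cells (4726 genes), 1779 passed without the mouse as a replicate block, 1661 with DESeq2 and 3091 with 1 cell per clonotype and class. Against NK receptor cells (1307), 73 passed without the block, 201 with DESeq2 and 618 with cells thinned to 3000 UMIs. For TRBV26 against other Gzmk cells (515), 79 passed without the block, 65 with DESeq2, 200 with at least 2 Gzmk UMIs, 313 after thinning, 76 with 1 cell per clonotype and class and 339 without the largest clonotype of each mouse. For expanded against single Gzmk cells (1268), 368 passed without the block, 200 with DESeq2, 562 with at least 2 Gzmk UMIs, 443 after thinning and 155 with 1 cell per clonotype and class. For the interaction (411), 4 passed without the block, 134 with DESeq2, 657 with no filter on low counts, 254 after thinning, 99 with 1 cell per clonotype and class and 210 without cells above 3 times the median UMIs. The cause of these moves was not tested. The mean share of Gzmk cells over the mice, 30.0%, was 21.3% with 1 cell per clonotype, and 25.03% to 35.0% with either mouse left out. With 1 mouse left out no test of genes is possible.

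Of 1695 alternative values for 136 gene results, 1587 kept direction and, where a test was run, side of the threshold. With 1 mouse left out only the direction was compared, and 135 values without mouse 1 and 132 without mouse 2 count among the 1587. Of the rest, 73 lost the call, 15 gained it and 20 changed sign, and the cause was not tested. Against remaining cells, Gzma was at 0.28 against cells without any Gzmk UMI, Tbx21 at -0.12 among cells with another TRBV and at -0.064 to 0.14 with 1 mouse left out. Cxcr6 was at 0.20 after thinning, 0.027 without high-UMI cells, 0.082 against cells without any Gzmk UMI and 0.35 among TRBV26 cells. Cxcr5 was at -0.024, -0.10 and -0.29 after thinning, against cells without any Gzmk UMI and among TRBV26 cells, and at -0.18 to 0.14 with 1 mouse left out. Against NK receptor cells, Gzmb was at -0.31 with 1 cell per clonotype and class, and Eomes at -0.057 to 0.33 with 1 mouse left out. Between TRBV26 and other Gzmk cells, Ifng was at 0.40 with 1 cell per clonotype and class and at -0.19 to 0.026 with 1 mouse left out. Between expanded and single Gzmk cells, Il10 was at -0.28 with at least 2 Gzmk UMIs, -0.35 after thinning, -0.35 with 1 cell per clonotype and class, -0.019 without high-UMI cells and -0.024 to 0.047 with 1 mouse left out.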

Other observations

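Some Gzmk cell levels can be set beside those of cells with Foxp3 UMIs. Il10 was at 46.3 and 30.5 CPM in Gzmk cells of mouse 1 and mouse 2, against 51.2 and 53.7 CPM in kept cells with Foxp3 UMIs, and Gzmb at 299 and 353 CPM in Gzmk cells, against 454 and 549 CPM in cells with Foxp3 UMIs. These levels were not tested against each other.

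Among clonotypes with at least 10 Foxp3-0 cells, those with the highest share of Gzmk cells used TRBV26 in both mice. Both were chosen after their values were seen. In mouse 1 it was a TRBV26 clonotype with TRBJ2-7, with 22 Gzmk cells of 24 (interval 73.0 to 99.0%). In mouse 2 it was a TRBV26 clonotype with TRBJ1-6, with 15 of 16 (69.8 to 99.8%). Other TRBV26 clonotypes with at least 10 such cells ran down to 22.2% Gzmk cells in mouse 1 and 9.09% in mouse 2. In the interaction by V gene class, 17 of 24 proliferation genes had a larger difference between Gzmk and remaining cells in TRBV26 cells and none a smaller one, with a median of 0.83 on the log2 scale against 0.016 over all tested genes, and none passed without the block.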
